A study of Mus musculus with 9 samples.

Results

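Photoreceptor ribbon synapse genes are described here as 10 genes of the presynaptic terminal of rods and cones, namely Bsn, Pclo, Ctbp2, Cacna1f, Cacna2d4, Cabp4, Unc119, Rims2, Stx3 and Cplx4. They were taken from the table by gene symbol, with no cutoff on their measured values. The list was, however, chosen with earlier results of these data known. Each of the 10 matched 1 of the 35397 genes listed. RNA had been sequenced from retina of wild-type mice (5 libraries, WT 1 to 5) and of db/db mice (4 libraries, db/db 1, 3, 4 and 5), which lack the long signalling form of the leptin receptor in every cell and become obese and diabetic. No treatment, age, sex, background strain or batch is named in the labels, and nothing in them says whether a library came from 1 animal or from several. Columns called Control were read as wild type and columns called DR as db/db, number by number, which the names imply but no label states. Because bulk tissue was sequenced, fewer cells of a type and less RNA per cell cannot be told apart, and the p-values reflect variation among single libraries, which may be technical.

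The photoreceptor terminal releases glutamate without pause in darkness and slows release in light. Its vesicles are tethered to a plate-like organelle, the synaptic ribbon, which stands at the active zone above clustered L-type calcium channels. The ribbon is built from RIBEYE, a product of Ctbp2, and is held at the membrane by the large scaffold proteins bassoon and piccolo. Calcium entering through Cav1.4 channels triggers fusion by SNARE proteins that differ in part from those of conventional synapses. Mutations in several of these genes cause night blindness or cone-rod dystrophy in people. Bipolar cells also hold ribbons, and bassoon, piccolo, Rims2 and CtBP2 are also used outside photoreceptors, so the values are totals over retinal cell types.

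RefSeq promoter windows (GRCm38.p6, 250 bases before to 50 after a transcript start) were matched for 6 of the 10 genes, with 9 windows in all. Those of Ctbp2 are shown because the gene makes unlike proteins from different starts, and 1 window each of Unc119, Stx3 and Cacna1f because their db/db estimates had different signs. Unc119 has 3 windows, of which the 1 that holds the motif described next is printed, and the other two, one of them at the upstream start, do not hold it. Capitals mark TAATCC, or GGATTA where it lies on the other strand, the core recognised by the photoreceptor homeodomain factors CRX and OTX2. It occurred in 3 of the 9 windows and in 7.06% of all 32851 windows of the table. A match is a description of the letters only. The windows below are Ctbp2 at chr7:133015198-133015497 and chr7:133081811-133082110 (both minus strand), Unc119 at chr11:78345334-78345633 (plus), Stx3 at chr19:11819354-11819653 (minus) and Cacna1f at chrX:7606853-7607152 (plus), each printed 5′ to 3′ on its own strand.
Ctbp2, internal start: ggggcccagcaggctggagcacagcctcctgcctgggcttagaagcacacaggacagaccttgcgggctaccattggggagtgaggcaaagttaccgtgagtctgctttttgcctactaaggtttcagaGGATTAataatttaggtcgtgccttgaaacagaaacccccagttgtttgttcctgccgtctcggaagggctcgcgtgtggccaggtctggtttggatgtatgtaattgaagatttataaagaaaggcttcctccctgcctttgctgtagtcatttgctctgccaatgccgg
Ctbp2, upstream start: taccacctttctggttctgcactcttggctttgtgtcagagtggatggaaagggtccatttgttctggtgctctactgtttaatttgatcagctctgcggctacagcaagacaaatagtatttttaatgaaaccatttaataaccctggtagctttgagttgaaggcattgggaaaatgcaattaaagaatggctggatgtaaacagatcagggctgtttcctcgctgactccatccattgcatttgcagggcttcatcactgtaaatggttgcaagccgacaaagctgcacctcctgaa
Unc119, internal start: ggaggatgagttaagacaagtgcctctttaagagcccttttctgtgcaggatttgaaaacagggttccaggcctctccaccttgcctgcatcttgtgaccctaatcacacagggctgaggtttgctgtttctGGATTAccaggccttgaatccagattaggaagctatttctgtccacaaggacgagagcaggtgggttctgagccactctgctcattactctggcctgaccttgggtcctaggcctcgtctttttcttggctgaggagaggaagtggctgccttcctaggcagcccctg
Stx3: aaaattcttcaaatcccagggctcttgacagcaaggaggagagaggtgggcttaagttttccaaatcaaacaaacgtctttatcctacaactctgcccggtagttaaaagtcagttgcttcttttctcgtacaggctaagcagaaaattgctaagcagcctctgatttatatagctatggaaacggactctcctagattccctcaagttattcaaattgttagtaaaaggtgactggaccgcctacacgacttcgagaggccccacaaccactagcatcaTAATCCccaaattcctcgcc
Cacna1f: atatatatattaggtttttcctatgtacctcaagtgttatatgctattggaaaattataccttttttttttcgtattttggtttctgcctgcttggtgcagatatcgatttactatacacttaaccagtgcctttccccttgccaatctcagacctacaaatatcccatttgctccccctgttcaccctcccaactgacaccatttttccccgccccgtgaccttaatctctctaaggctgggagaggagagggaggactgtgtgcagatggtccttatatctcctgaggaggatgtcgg
The internal Ctbp2 window ends in the first exon of the annotated transcript Ctbp2-214 (chromosome 7, 133013518 to 133015248, 1731 bases), the long first exon that encodes the ribbon-specific part of RIBEYE. The other protein-coding Ctbp2 transcripts in GENCODE begin upstream of it, but none has its first exon in the upstream window printed above. That window is therefore not matched here to a form of the protein. The deposited value sums both kinds of transcript, so RIBEYE and the corepressor CtBP2 were not measured apart.

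Levels are given as FPKM, fragment counts scaled by exon length and library depth. The recovered whole reads imply that this length is that of all annotated exons of a gene together. It exceeds the longest transcript unevenly, at 10.4 against 4.80 kb for Rims2, 9.48 against 5.80 kb for Cacna2d4 and 3.52 against 3.37 kb for Cabp4. The order of genes by level therefore depends in part on the length used. In wild-type retina the members spanned a 54.3-fold range of mean FPKM. Unc119 stood highest at 491 ± 25.9 FPKM (SD, n = 5), above 99.8% of the 14588 genes tested. Below it came the complexin gene Cplx4 (267 ± 12.9 FPKM) and the syntaxin gene Stx3 (142 ± 4.14 FPKM). The 3 genes of the calcium channel lay close together, with Cacna2d4 at 87.3 ± 3.23, Cabp4 at 84.6 ± 5.85 and Cacna1f at 83.3 ± 3.60 FPKM, and their wild-type ranges overlapped. The scaffolds were lowest, with Ctbp2 at 42.6 ± 2.38, Rims2 at 33.9 ± 1.52, Bsn at 13.7 ± 0.992 and Pclo at 9.05 ± 0.241 FPKM (SD, n = 5 for each). All other neighbours in this order had wild-type ranges that did not overlap. Among all 9 libraries the ranges of Ctbp2 and Rims2, and of Bsn and Pclo, also overlapped. Wild-type libraries agreed closely for each gene, with a coefficient of variation from 2.67% (Pclo) to 7.25% (Bsn).

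Depth recovered from steps in the values was 36.6 to 47.9 M reads per library, and each member rested on at least 4467 reads in every library (Bsn in db/db 1). The library db/db 1 stood apart from all others. Over all tested genes its median absolute deviation from the wild-type mean was 0.34 on the log2(FPKM + 1) scale, against 0.10 to 0.15 in the other db/db libraries. Genes with a longest transcript over 10 kb had a median deviation of -0.52 in db/db 1 and genes under 2 kb one of 0.46. In db/db 3, 4 and 5 those medians lay between -0.11 and 0.02. Summed rod markers, 10 of 10 detected and none at 0 in all libraries, ranged from 11829 to 12702 FPKM in wild type and from 12135 to 13815 FPKM in db/db. Lepr, the gene mutated in db/db mice, was listed at 0.0264 to 0.0467 FPKM in wild type and 0.0308 to 0.0689 FPKM in db/db, below the filter of a mean of 1 FPKM, and as a sum over its forms it does not check the labels. Results are given with and without db/db 1.

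Do transcripts of the ribbon synapse differ in the diabetic retina? The db/db libraries were set against wild type to ask this. With all 9 libraries none of the 10 members passed an adjusted p of 0.05 in limma, where 0.5% of all tested genes did (73 genes, 0.233% higher and 0.267% lower in db/db). Unadjusted p was under 0.05 for 2 members, Rims2 and Pclo, as it was for 19.3% of all tested genes. limma-voom on recovered reads also called none. The estimated log2 change was above 0 for 3 members and below 0 for 7, with a median of -0.04 against 0.0035 over all tested genes. Without db/db 1, Pclo passed and fell, while 9 members did not pass. In that fit 10.6% of all tested genes were called, 4.75% as higher and 5.88% as lower in db/db, so 1 of 10 is no larger a share than the background. Correction for transcript length with all libraries left 0 members called, against 3.79% of all genes (1.99% higher and 1.8% lower). With db/db 1 left out, GC correction also gave 0, against 5% (2.62% higher and 2.37% lower), and length correction gave 2 higher, against 14.1% (7.47% higher and 6.67% lower). The estimates without db/db 1 divided evenly, with 5 above and 5 below 0, and the median was -0.01 against -0.02 over all genes.

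**Figure D1:**
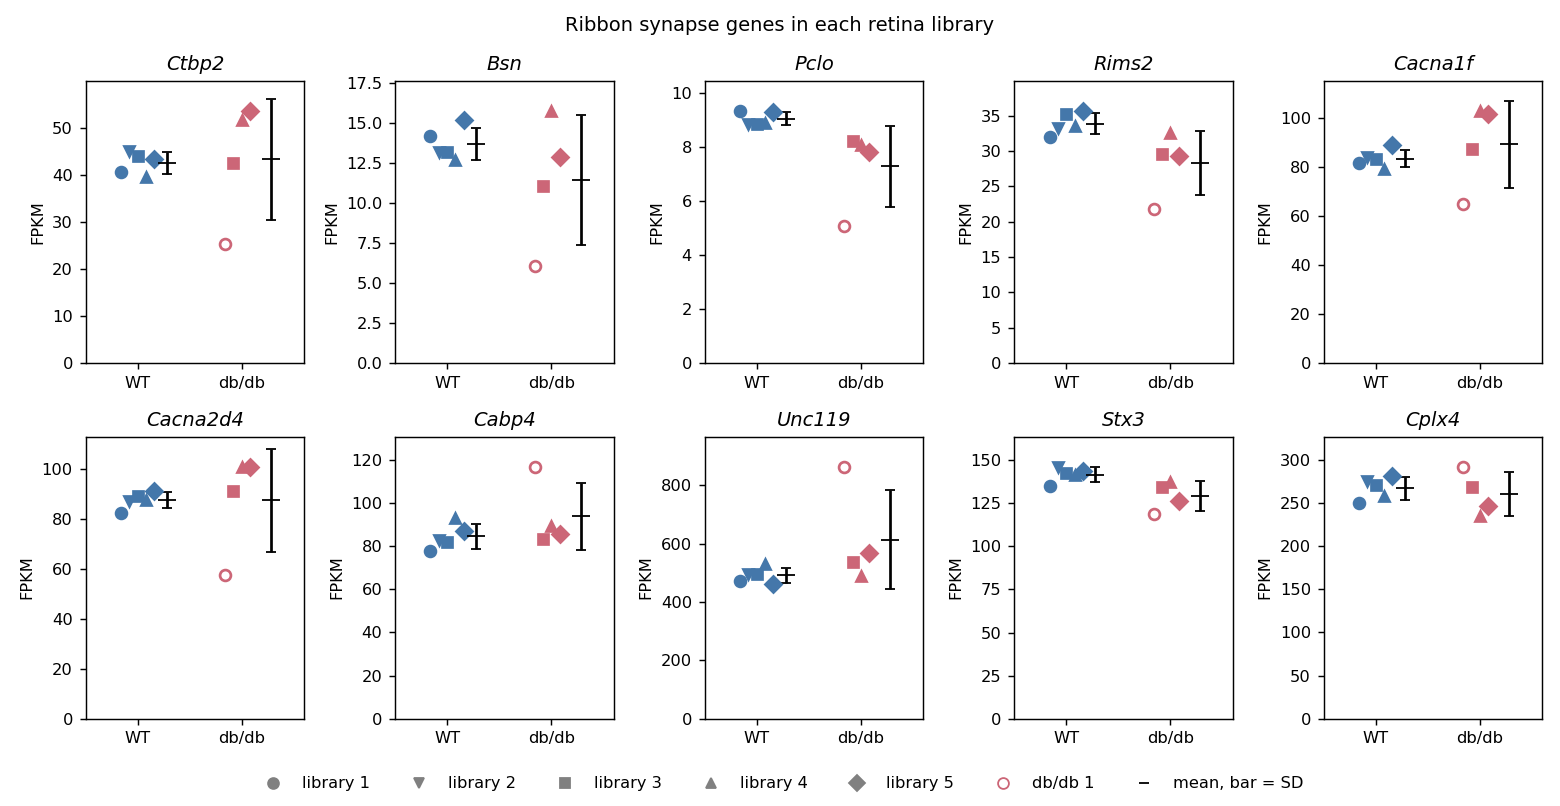
FPKM of each member (vertical axes, from 0) in the 5 WT and 4 db/db libraries, with the group mean and SD at the right of each group. The open circle is db/db 1, which was the lowest of the 9 libraries for 7 members and the highest for 3, while db/db 4 and db/db 5 lay above all WT libraries for Ctbp2, Cacna1f and Cacna2d4.

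Ribbon and active zone scaffolds came first in the comparison. Ctbp2 (ENSMUSG00000030970, chromosome 7, 132987563 to 133124354, mm10) read 40.7, 45.2, 44.1, 39.5 and 43.4 FPKM in WT 1 to 5, and 25.4, 42.6, 51.7 and 53.6 FPKM in db/db 1, 3, 4 and 5. The db/db values thus fell on both sides of the wild-type range, with db/db 1 below it, db/db 3 within it and db/db 4 and 5 above it. Means of 42.6 ± 2.38 (SD, n = 5) and 43.3 ± 12.9 FPKM (SD, n = 4) gave a log2 difference of -0.03 (SE 0.19, limma adjusted p = 0.942). Its 95% interval allowed a fold from 0.730 to 1.32. Leaving out db/db 1 turned the estimate to 0.20 (SE 0.08, adjusted p = 0.117), which did not pass. An annotated form of Fgfr2 shares 314 exonic bases with Ctbp2 on the same strand, and Fgfr2 averaged 0.541 FPKM.

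Bsn encodes bassoon, which anchors the ribbon to the presynaptic membrane (ENSMUSG00000032589, chromosome 9, 108096022 to 108190384). Its values were 14.1, 13.2, 13.2, 12.7 and 15.2 FPKM in WT 1 to 5 and 6.08, 11.0, 15.7 and 12.9 FPKM in db/db 1, 3, 4 and 5. The db/db libraries were spread from less than any wild-type library (db/db 1 and 3) to more than any (db/db 4). The log2 change of -0.31 (SE 0.21, limma adjusted p = 0.440) shrank to -0.06 (SE 0.10, adjusted p = 0.736) without db/db 1. Bsn had the widest db/db spread of the 10 members, with a coefficient of variation of 35.5%, and still the widest without db/db 1, at 17.9%.

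Pclo encodes piccolo, the second giant scaffold, which shares domains with bassoon (ENSMUSG00000061601, chromosome 5, 14514918 to 14863459). It read 9.33, 8.87, 8.86, 8.90 and 9.30 FPKM in WT 1 to 5 and 5.06, 8.22, 8.09 and 7.81 FPKM in db/db 1, 3, 4 and 5. All 4 db/db libraries lay below all 5 wild-type libraries, and Pclo was the 1 member whose groups did not overlap. Groups were as fully apart in 11.6% of all tested genes, 5.2% with db/db higher and 6.38% with db/db lower. With db/db 1 left out Pclo was again the 1 such member, against 21.2% of genes (9.65% higher and 11.5% lower). For Pclo the log2 change was -0.30 (SE 0.12, limma adjusted p = 0.217) with all libraries and -0.15 (SE 0.04, adjusted p = 0.0468) without db/db 1, where the mean was 8.04 ± 0.208 FPKM (SD, n = 3), or 0.888 of wild type. That call was lost after correction for transcript length (adjusted p = 0.0789) or for GC content (adjusted p = 0.155), both without db/db 1. The antisense gene Gm26954, at a mean of 30.8 FPKM, overlaps 496 exonic bases of Pclo, and no source used here gives the strand of counting. The level of Bsn relative to Pclo ran from 1.42 to 1.63 over the wild-type libraries. It was 1.20 in db/db 1, 1.34 in db/db 3, 1.94 in db/db 4 and 1.65 in db/db 5, so the pair did not move in step in the db/db libraries.

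Rims2 encodes RIM2, the active zone protein that links vesicles to calcium channels in photoreceptors (ENSMUSG00000037386, chromosome 15, 39198261 to 39684372). It read 31.9, 33.2, 35.2, 33.5 and 35.6 FPKM in WT 1 to 5 and 21.8, 29.6, 32.5 and 29.3 FPKM in db/db 1, 3, 4 and 5. The db/db libraries other than db/db 4 lay below every wild-type library, and db/db 4 lay above WT 1 only. Its log2 change was -0.27 (SE 0.10, limma adjusted p = 0.212), the smallest adjusted p among the 10 members. It was -0.15 (SE 0.05, adjusted p = 0.0905) with db/db 1 left out. The estimate stayed below 0 in all 26 alternatives run, from -0.34 to -0.13, without passing in any.

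The calcium channel genes form the next group. Cacna1f encodes the pore-forming subunit of Cav1.4, mutated in X-linked congenital stationary night blindness (ENSMUSG00000031142, chromosome X, 7607083 to 7635196). It read 81.5, 83.9, 83.0, 79.2 and 88.9 FPKM in WT 1 to 5 and 64.8, 87.3, 102.6 and 101.6 FPKM in db/db 1, 3, 4 and 5. Again db/db 1 was below the wild-type range, db/db 3 within it and db/db 4 and 5 above it. On the log2 scale Cacna1f differed by 0.07 (SE 0.13, limma adjusted p = 0.770) with all libraries, and it was -0.08 after quantile normalization and -0.0052 after GC correction. Leaving out db/db 1 gave 0.22 (SE 0.06, adjusted p = 0.0559), a mean of 97.1 ± 8.58 FPKM (SD, n = 3) or 1.17 times wild type, which did not pass. With correction for transcript length as well it rose by 0.23 (SE 0.06, adjusted p = 0.0305), in a fit where 14.1% of all tested genes were called. With GC correction in its place the adjusted p was 0.175.

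Cacna2d4 encodes the auxiliary alpha2delta4 subunit, needed for Cav1.4 to reach the terminal (ENSMUSG00000041460, chromosome 6, 119236526 to 119352407). Its values were 82.4, 86.8, 89.0, 87.4 and 91.1 FPKM in WT 1 to 5 and 57.2, 91.0, 100.7 and 100.5 FPKM in db/db 1, 3, 4 and 5. The pattern was that of Cacna1f, with db/db 1 low and db/db 4 and 5 above every wild-type library. Group means were nearly equal, at 87.3 ± 3.23 (SD, n = 5) and 87.4 ± 20.6 FPKM (SD, n = 4). The estimate on the log2 scale was -0.03 (SE 0.15, limma adjusted p = 0.918). Leaving out db/db 1 made it 0.16 (SE 0.05, adjusted p = 0.0778), and with length correction as well it passed and rose by 0.18 (adjusted p = 0.0465; 0.175 with GC correction). The level of Cacna2d4 relative to Cacna1f was 1.01 to 1.10 in wild type and 0.982 to 1.04 in db/db 3, 4 and 5, but 0.883 in db/db 1. Lrtm2 lies within Cacna2d4 on the opposite strand and shares no exonic bases with it.

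Cabp4 encodes the calcium-binding protein that shifts Cav1.4 opening to the voltages of a photoreceptor in the dark (ENSMUSG00000024842, chromosome 19, 4135423 to 4144033). It read 77.8, 82.7, 81.9, 93.2 and 87.2 FPKM in WT 1 to 5 and 116.9, 83.5, 89.5 and 85.8 FPKM in db/db 1, 3, 4 and 5. Only db/db 1 lay outside the wild-type range, above it. Its log2 change was 0.14 (SE 0.10, limma adjusted p = 0.483), and 0.03 (SE 0.06, adjusted p = 0.770) without db/db 1, with a 95% interval from -0.10 to 0.17. Relative to Cacna1f, Cabp4 stood at 0.955 to 1.18 in wild type, 1.80 in db/db 1, and between 0.844 and 0.957 in the other db/db libraries. Gpr152 overlaps 131 exonic bases of Cabp4 on the opposite strand at a mean of 28.9 FPKM.

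**Figure D2:**
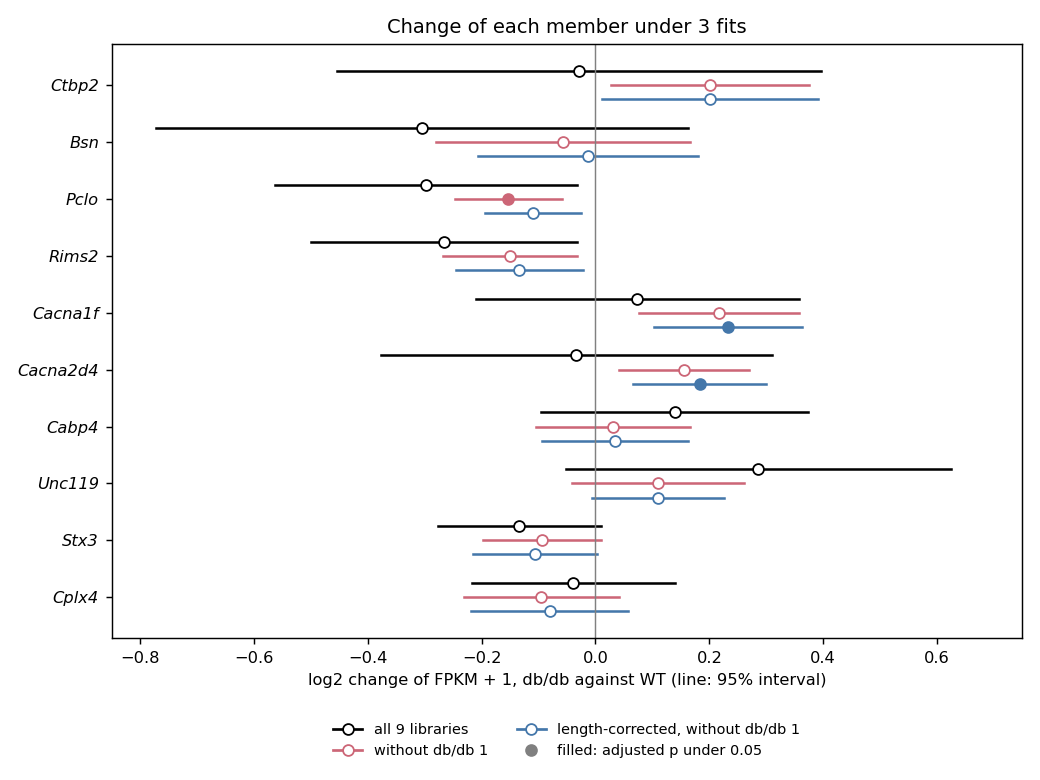
Log2 change of FPKM + 1 (horizontal axis) with its 95% interval for each member, with all 9 libraries, without db/db 1, and with correction for transcript length without db/db 1. Filled points passed an adjusted p of 0.05, which none did with all 9 libraries, Pclo did without db/db 1, and Cacna1f and Cacna2d4 did with the length correction.

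The release machinery was represented by Stx3 and Cplx4. Stx3 encodes syntaxin 3, the target-membrane SNARE of ribbon terminals (ENSMUSG00000041488, chromosome 19, 11775118 to 11819403). It read 135, 146, 143, 141 and 144 FPKM in WT 1 to 5 and 119, 135, 137 and 126 FPKM in db/db 1, 3, 4 and 5. In db/db, 3 libraries were below all of wild type, and db/db 4 was above WT 1 only. For Stx3 the estimate was -0.13 on the log2 scale (SE 0.06, limma adjusted p = 0.284), and -0.09 (SE 0.05, adjusted p = 0.201) without db/db 1. Cplx4 encodes complexin 4, a SNARE-binding protein found at retinal ribbon synapses (ENSMUSG00000024519, chromosome 18, 65955722 to 65970237). It read 250.3, 276, 271, 258 and 281 FPKM in WT 1 to 5 and 292, 269, 235 and 247 FPKM in db/db 1, 3, 4 and 5. Here db/db 1 was the highest of the 9 libraries, and db/db 4 and 5 were below all of wild type. Its log2 change was -0.04 (SE 0.08, limma adjusted p = 0.808), and -0.10 (SE 0.06, adjusted p = 0.320) without db/db 1.

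Unc119 encodes a lipid-binding chaperone that carries myristoylated proteins such as transducin, and it also binds CaBP4 and RIBEYE at the terminal (ENSMUSG00000002058, chromosome 11, 78343482 to 78349164). It read 473, 497, 495, 529 and 461 FPKM in WT 1 to 5 and 864, 536, 489 and 567 FPKM in db/db 1, 3, 4 and 5. The high value of db/db 1 was 1.76 times the wild-type mean, db/db 3 and 5 lay just above the wild-type range and db/db 4 within it. For Unc119 the log2 change was 0.29 (SE 0.15, limma adjusted p = 0.329), and 0.11 (SE 0.07, adjusted p = 0.304) without db/db 1. After GC correction without db/db 1 it was 0.0027 (adjusted p = 0.981).

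In db/db 1 the members' deviations followed transcript length. Those 5 with a longest transcript over 4 kb (Bsn, Pclo, Cacna1f, Cacna2d4 and Rims2) each had their lowest value of the 9 libraries there. Both members under 2 kb (Unc119 and Cplx4) had their highest. Of the 3 between these lengths, Ctbp2 and Stx3 were lowest and Cabp4 highest in db/db 1. All 10 members thus had an extreme value in db/db 1, as did 71.4% of all tested genes. Spearman's rho between transcript length and the deviation from wild type over the 10 members was -0.83 in db/db 1, and between -0.45 and 0.27 in the other db/db libraries, given as a description. Over all 14490 tested genes with a known length rho was -0.54 in db/db 1 and between -0.13 and 0.18 in the others. The members share these libraries, so the points are not independent.

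Set against genes of similar length, some members still stood low or high in db/db 1. Ctbp2 deviated by -0.72 where the median of its length bin was 0.03, and only 1.80% of the 724 genes in that bin were lower. Bsn deviated by -1.05 against a bin median of -0.49, and Rims2 by -0.61 against -0.17. Cabp4 deviated by 0.46 against 0.04, and Unc119 by 0.81 against 0.50. Cacna1f, at -0.36 against -0.41, was close to its bin. The longest transcript of Ctbp2 in the annotation has 3.60 kb while all its exons together have 6.22 kb, so its place on the length axis depends on which forms the retina uses. Length was not the only property that differed among libraries. Over all tested genes rho with transcript GC content was 0.21 in db/db 1, 0.24 in db/db 3, 0.39 in db/db 4 and 0.58 in db/db 5. In db/db 5 the median deviation was -0.20 for genes under 45% GC and 0.15 for genes over 55%. Of the members, Cplx4 falls in the first class, and Bsn, Ctbp2 and Unc119 fall in the second. The part of length or GC content in the members' values beyond these corrections was not tested.

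**Figure D3:**
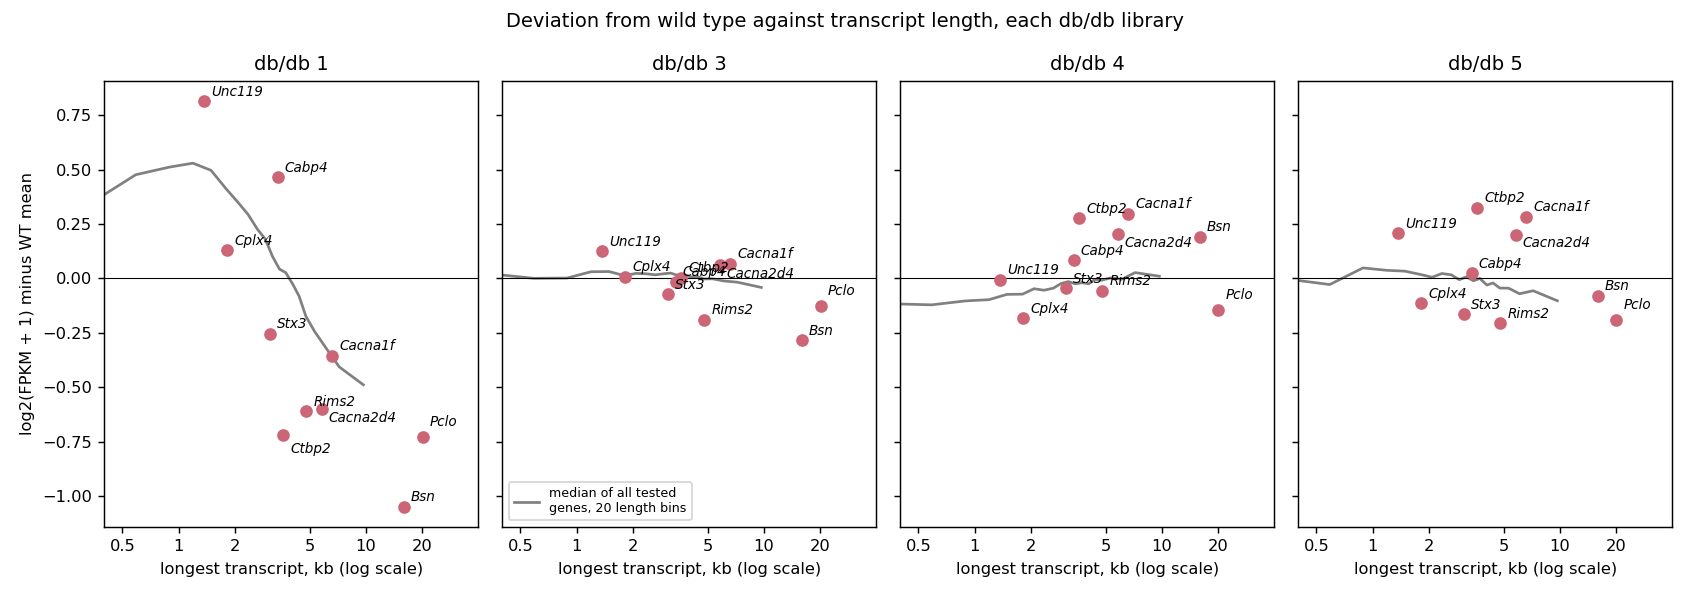
Deviation of log2(FPKM + 1) from the WT mean (vertical axis) against longest transcript length (horizontal, log scale) for the 10 members in each db/db library, with the median of all tested genes in 20 length bins as a line. The line and the members slope downward in db/db 1, while in db/db 4 and 5 Ctbp2, Cacna1f and Cacna2d4 lie above it.

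Other synapse genes were measured beside the members, in 4 lists with 46 of 47 genes tested. None of them passed with all 9 libraries in limma, where 0.5% of all genes did. Unadjusted p was under 0.05 for 10 of them and for 19.3% of all genes. Without db/db 1, 3 of the 46 were called, against 10.6% of all genes. With GC correction as well 3 were called, against 5%, and with length correction as well 5, against 14.1%. Among 12 active zone and calcium channel genes the median log2 change was -0.15. The smallest p belonged to Cacna2d1, another alpha2delta subunit (-0.29, adjusted p = 0.104), and to Erc2, which encodes the active zone protein CAST (-0.26, adjusted p = 0.109). Ctbp1, the paralog of Ctbp2 that lacks a RIBEYE form, had 0.23 (adjusted p = 0.149). Leaving out db/db 1 brought the median of this list to -0.02, and Cacna2d1 fell (-0.23, adjusted p = 0.0470; 0.0335 with length correction and 0.283 with GC correction). Ctbp1 passed only with length correction in that set of libraries (0.17, adjusted p = 0.0403; 0.0716 with no correction and 0.261 with GC correction).

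Among 15 vesicle fusion and recycling genes the median was -0.03. The vesicle protein gene Syp had 0.17 (adjusted p = 0.194) and Rab3a, a vesicle-bound GTPase gene, 0.20 (adjusted p = 0.220). Cplx3, the other retinal complexin of this kind, had -0.03 (adjusted p = 0.897) and was at 102 ± 2.05 FPKM in wild type (SD, n = 5), below Cplx4. None of the 15 passed without db/db 1, but in those libraries Cplx3 fell with GC correction (-0.16, adjusted p = 0.0370). Among 10 genes of the terminal membrane and the synaptic cleft the median was -0.08. Ano2, a calcium-activated chloride channel of photoreceptor terminals, had the smallest p of the 46 genes. It stood at 18.7 ± 0.814 FPKM in wild type (SD, n = 5) and 14.7 ± 1.67 FPKM in db/db (SD, n = 4), a difference of -0.34 on the log2 scale (adjusted p = 0.0735). With db/db 1 left out it fell (-0.26, adjusted p = 0.0204), also with GC correction (-0.28, adjusted p = 0.0263) or length correction (-0.25, adjusted p = 0.0228). Elfn1, which encodes the rod adhesion protein that contacts mGluR6 on bipolar cells, rose in the same 3 fits (0.54, 0.45 and 0.54, adjusted p = 0.0127, 0.0222 and 0.0089) but not with all 9 libraries (0.31, adjusted p = 0.396), and it was singled out after its values were seen. In these 3 fits 10.6%, 5% and 14.1% of all tested genes were called. The calcium pump gene Atp2b1 had -0.26 (adjusted p = 0.256).

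Genes of conventional synapses had a median of -0.07 over 9 tested of 10, and none passed with or without db/db 1. Rab3c and the N-type channel gene Cacna1b had the smallest p (-0.25 and -0.15, adjusted p = 0.247 and 0.573). Stx1a, which encodes a syntaxin of conventional synapses, stood at 4.68 ± 0.651 FPKM in wild type (SD, n = 5), below Stx3 in FPKM.

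**Figure D4:**
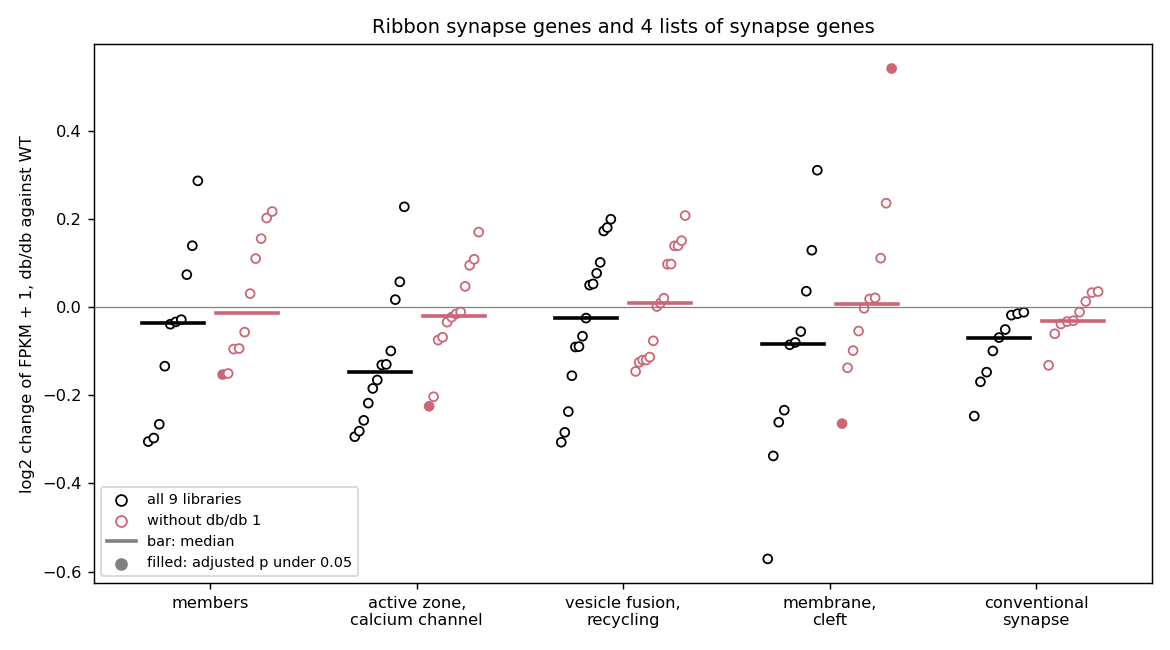
Log2 change of FPKM + 1 (vertical axis) for the 10 members and the tested genes of 4 synapse lists, with all 9 libraries and without db/db 1, with the median of each as a bar. Points are filled where the adjusted p was under 0.05. That held for none with all 9 libraries and, without db/db 1, for Pclo, Cacna2d1, Ano2 and Elfn1.

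Markers of the cells that hold these synapses, and of cells that a dissected retina can carry, were summed in each library. None of 73 tested markers in 12 lists passed with all 9 libraries in limma, where 0.5% of all genes did. Unadjusted p was under 0.05 for 13 of them, as it was for 19.3% of all genes. Cone markers, 9 of 9 tested, summed to 522 to 580 FPKM in wild type and 501 to 564 FPKM in db/db. Bipolar markers, 9 of 9 tested, summed to 310 to 329 and 303 to 313 FPKM. Rod, cone and bipolar sums in db/db 1 were 12398, 564 and 303 FPKM, so the sums for rods and cones in that library lay within the wild-type range while Bsn, Pclo, Ctbp2 and Rims2 lay below theirs. Amacrine markers, 8 of 8 tested, summed to 144 FPKM in db/db 1 and 182 to 190 FPKM in the other 8 libraries. Markers of pigment epithelium (404 FPKM in db/db 1 against 79.9 to 198 elsewhere, with 5 of 7 tested), ganglion cells (422 against 271 to 320, 7 of 7), Müller glia (1347 against 1026 to 1183, 7 of 7) and blood (72.6 against 14.6 to 26.1, 4 of 5) were each highest in db/db 1. These sums include short transcripts (Ttr 1.19, Sncg 0.852, Apoe 1.41 and Hba-a1 0.699 kb) and longer ones (Rgr 4.70 and Glul 2.79 kb). Over all tested genes under 2 kb the median deviation in db/db 1 was 0.46. The part of transcript length in these sums was not tested. Genes within a list did not all move alike. With all 9 libraries the Müller glia genes of smallest p were Slc1a3 (log2 change -0.34, limma adjusted p = 0.0974) and Glul (0.18, adjusted p = 0.178). Those of the ganglion cell list were Sncg (0.38, adjusted p = 0.220) and Slc17a6 (-0.23, adjusted p = 0.288). Horizontal cell markers, 3 of 5 tested, had sums of 37.0 to 40.2 FPKM over the WT libraries. Their db/db sums were lower, at 33.9 to 36.3 FPKM, so the groups did not overlap. Among all tested genes taken singly, 11.6% had groups as fully apart. With all 9 libraries Prox1 was lower in db/db (log2 change -0.27, limma adjusted p = 0.246), while Calb1 (0.02) and Lhx1 (0.03) were not. Without db/db 1 the changes were -0.14, -0.15 and 0.07 in that order, and none passed. Endothelial markers, 5 of 5 tested, summed to 30.9 FPKM in db/db 1 and 21.4 to 27.8 FPKM elsewhere. Lens markers, 3 of 5 tested, ranged from 1.31 to 86.8 FPKM in wild type and from 1.45 to 179.7 FPKM in db/db, with the highest sum in db/db 5. Microglial markers, 3 of 6 tested, ranged from 9.95 to 14.4 FPKM in wild type and from 8.45 to 13.01 FPKM in db/db. None of the genes in these lists was at 0 in all libraries. Their part in the members' values was not tested. In the fit without db/db 1, Sag, the rod arrestin gene, fell (-0.30, adjusted p = 0.0429), as did the cone channel gene Cngb3 (-0.32, adjusted p = 0.0284), where 5.88% of all genes were called lower. With GC correction neither passed, at -0.28 for Sag (adjusted p = 0.0644) and -0.18 for Cngb3 (adjusted p = 0.163). With length correction Cngb3 passed (-0.30, adjusted p = 0.0260) and Sag did not (-0.28, adjusted p = 0.0523).

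The gene nearest to each member was found by the root-mean-square difference of centred log2(FPKM + 1) over the 9 libraries, among 11669 protein-coding genes. For the scaffolds these were Nfasc for Ctbp2 (difference 0.04), Cacna1i for Bsn (0.05), Ptprd for Pclo (0.04) and Grk1 for Rims2 (0.04). For the calcium channel genes they were Plch2 for Cacna1f (0.03), Klhl18 for Cacna2d4 (0.03) and Nrm for Cabp4 (0.03). The others were Csnk2b for Unc119 (0.03), Rnf2 for Stx3 (0.02) and Cdkn2c for Cplx4 (0.04). The members' own variation over the 9 libraries on this scale ran from 0.09 (Stx3 and Cplx4) to 0.35 (Bsn). The median absolute deviation of the members from the wild-type mean was 0.61 in db/db 1 and 0.07 to 0.20 in the other db/db libraries. No member was nearest to another member.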

How the data were processed

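Total RNA from retina was extracted with a Qiagen column kit and made into SMARTER libraries, per the labels' protocols. The authors deposited FPKM values for 35397 genes in 9 libraries. Per the submitters' processing notes the genome was mm10. Aligner, counter, annotation and strand are each not given in the sources used. Symbols, positions, transcript lengths and GC content came from GENCODE M21, which uses that assembly, for 34499 identifiers.

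Values were tested as log2(FPKM + 1), which understates changes of low genes, for 14588 genes averaging 1 FPKM or more. limma 3.58.1 in R 4.3.3 (eBayes with a trend) compared db/db with WT with no covariate, and p-values were adjusted by Benjamini-Hochberg over all tested genes. Reads were recovered from the FPKM steps, where 99.0% to 99.2% of low values were whole within 0.1 read. Many recovered values were even, so reads may be mates of 1 fragment, and counting error is a lower limit. On simulated data for this comparison (14588 genes), 48% of changes of 0.5 and 85% of changes of 1 on the log2 scale were recovered. The simulated noise was independent, with 1 SD per gene for all libraries and no deviating library such as db/db 1, so these rates may not hold for the real libraries.

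All members, 4 synapse lists and 12 marker lists were chosen with earlier results of these data known. Named genes were the members, up to 4 called genes of each list or, where none was called, the 2 of smallest p, and the gene nearest to each member. Other named genes (Ctbp1, Cplx3, Elfn1 and Stx1a) were chosen after their values were seen. Some list genes are not reported here. No column was left out. Alternatives were other pseudocounts, filters, eBayes settings, scalings, weights, a replicate block, fewer libraries, corrections in 20 bins of GC content or length, and voom. Length correction without db/db 1, and the block with GC correction, were added after seeing the data.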

Additional observations from a re-analysis of the deposited data

Results flagged for a closer look

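Among 20 groups of member values (10 genes in WT and in db/db), 1 held a value far from its group by Dixon's ratio, about as many as chance gives at 1 in 20. It was Pclo in db/db 1, at 5.06 FPKM, where the nearest other db/db library stood at 7.81 FPKM (ratio 0.871, above the 95% critical value for 4 samples).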

How the results depend on the processing

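Each member was refitted under 26 alternatives. Of these 260 fits, 241 kept the direction and the side of the threshold, 17 turned the direction and 2 passed where the comparison with all libraries did not (Pclo without db/db 1, and Cacna1f with length correction without it). Cacna2d4 turned and passed in the latter. Bsn, Pclo, Rims2 and Stx3 stayed below 0 and Cabp4 and Unc119 above 0 in all 26. Log2 changes that turned were those of Ctbp2 (0.16 with array weights, 0.20 without db/db 1, 0.16 without db/db 1 and db/db 4, 0.13 with GC correction and 0.20 with length correction, both without db/db 1) and Cacna2d4 (0.13, 0.16, 0.13, 0.13 and 0.18 in the same order, and 0.065 with length correction of all libraries). The others were Cacna1f (-0.077 with quantile normalization, -0.0014 without db/db 4, -0.0052 with GC correction) and Cplx4 (0.0086 without db/db 4, 0.029 with GC correction, 0.045 with the replicate block and GC correction). With each library left out in turn the changes ran from -0.15 to 0.20 (Ctbp2), -0.0014 to 0.22 (Cacna1f), -0.11 to 0.16 (Cacna2d4) and -0.095 to 0.0086 (Cplx4). The cause was not tested.

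The number of members called was 0, and over fits that left out 1 library it ran from 0 to 1 (Pclo, without db/db 1). It was 2 with length correction without db/db 1. Of the 4 synapse lists 0 genes were called, and 3 with array weights, 2 without db/db 1 and db/db 4, 1 with length correction, 3 with GC correction without db/db 1, 5 with length correction without db/db 1, and 0 to 3 when 1 library was left out. Over all genes 73 were called, and 9 with no filter, 30 with a filter of 5 FPKM, 36 with equal sums (21 higher and 15 lower, against 34 and 39), 1206 with array weights, 540 without db/db 1 and db/db 4, 6 with GC correction, 549 with length correction, 722 with GC correction and 2044 with length correction without db/db 1, 110 with voom, and 4 to 1548 when 1 library was left out, the highest without db/db 1.

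With the replicate number as a block 2 genes were called over all and no member, with adjusted p from 0.443 (Rims2) to 0.990 (Ctbp2), and with the block and GC correction 0 genes were called. No label states that equal numbers pair the samples. Deviations of libraries 1, 3, 4 and 5 correlated across groups at 0.04, 0.05, -0.18 and 0.13, which are too few values to settle whether they do.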
